A study of Danio rerio with 14 samples.

Results

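The 4 genes described here are 3 transcription factors of the SoxE family, sox9a (ENSDARG00000003293), sox9b (ENSDARG00000043923) and sox10 (ENSDARG00000077467), and the cartilage collagen gene col2a1a (ENSDARG00000069093). They were taken by Ensembl identifier from the 32520 genes counted in each library. No threshold on their values was used, but earlier results of these data were known when they were chosen. The libraries came from heads of zebrafish larvae at 72 hours postfertilization (hpf), and the study asked how loss of psmb1, which encodes a beta subunit of the proteasome core, alters cranial cartilage and muscle. Mutants (M, psmb1-/-) carried the hi2939 retroviral insertion in the first intron of psmb1, an allele that still makes some wild-type transcript. Their siblings (WH) were wild-type and heterozygous larvae pooled together, so the WH group itself carries the mutant allele in part of its larvae. From each sample of 20 to 25 heads, cells were sorted by a reporter: 7000 cells positive for Tg(sox10:kaede)zf393, or 1500 cells positive for the fast muscle reporter Tg(mylz2:mCherry). This gave 3 M and 4 WH libraries of sox10+ cells and 3 M and 4 WH libraries of mylz2+ cells. The sox10 promoter drives the first reporter in cartilage and in other cells such as those of the ear, and the labels give the sorted population as neural crest and chondrocytes.

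SoxE factors are DNA-binding proteins that act in neural crest cells and in several of the cell types they form. Sox9 factors drive chondrocyte differentiation, and in mammals SOX9 activates the type II collagen gene together with SOX5 and SOX6. Zebrafish have a pair of sox9 genes, both used in the pharyngeal skeleton. sox10 marks early neural crest and is kept in glia, pigment cell precursors and the ear, and in zebrafish the sox10 reporter is also strong in differentiating jaw chondrocytes. col2a1a encodes a chain of type II collagen, the main fibril of cartilage matrix.

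The libraries held between 54824619 and 103563447 counts, more than the reads per sample that the methods state, a difference the sources used here do not account for. Levels are counts per 1000000 counts of a library (CPM) after scaling by trimmed mean of M values (TMM) over all 14 libraries. The TMM factors lay between 1.29 and 1.58 in sox10+ libraries and between 0.549 and 0.879 in mylz2+ libraries, so scaling matters most between cell types: on library totals alone, the median log2 difference of all genes between sox10+ and mylz2+ cells was 1.03 in M and 1.41 in WH, against 0.11 and 0.21 with TMM, and the median genotype difference was 0.12 in sox10+ and 0.41 in mylz2+ cells, against -0.02 and 0.01 with TMM. No sequence or transcript length was at hand, so levels are compared between libraries and not between genes, and reads that the sox9a and sox9b copies might share could not be told apart. As a check of the genotype labels, psmb1 had 123, 98.7 and 121 CPM in M mylz2+ cells, against 181, 240, 214 and 195 CPM in WH mylz2+ cells, and it fell there (log2 fold change -0.85, edgeR adjusted p = 0.00161). In sox10+ cells it had 62.1, 47.0 and 60.7 CPM in M, against 38.5, 55.9, 61.0 and 65.3 CPM in WH, and these levels overlapped (log2 fold change 0.04, adjusted p = 0.956). Its level therefore gave no check of the sox10+ labels, and M and WH in sox10+ cells stand for the libraries as labelled. Set against the summed counts of the 31 other proteasome genes of a list, psmb1 stood at 0.00619 to 0.00743 in M and at 0.0227 to 0.0304 in WH sox10+ libraries, and at 0.00390 to 0.00501 in M and 0.0204 to 0.0237 in WH mylz2+ libraries, with no overlap in either cell type. The other 31 genes rose in M in both cell types, so this ratio is no measure of reduced psmb1. Over all 32 identifiers of the list the median log2 fold change was 1.89 in sox10+ and 1.42 in mylz2+ cells. The paper reports raised proteasome subunit genes in dissected mutant heads by qRT-PCR, so the rise itself goes with the labels as given.

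All 4 genes were higher in sox10+ than in mylz2+ cells in both genotypes, and none of the 7 sox10+ libraries overlapped a mylz2+ library for any of them. The lowest sox10+ library of M had 7.86 times the highest mylz2+ library of M for sox9a, 6.32 times for sox9b, 146 times for sox10 and 58.1 times for col2a1a. In WH the same multiples were 11.6 for sox9a, 3.73 for sox9b, 92.4 for sox10 and 110 for col2a1a. For sox10 this difference only checks the sort, since the sox10 promoter drove the reporter. The fitted log2 differences in M were 3.48 (SE 0.29) for sox9a, 3.45 (SE 0.36) for sox9b, 7.56 (SE 0.76) for sox10 and 6.93 (SE 0.78) for col2a1a. In WH they were 4.41 (SE 0.27), 2.76 (SE 0.31), 7.79 (SE 0.67) and 8.07 (SE 0.71) for the same genes in the same order. The highest adjusted p of these 8 values was 9.90e-06 (edgeR quasi-likelihood test with Benjamini-Hochberg adjustment). Among all 23232 genes tested, 16.4% were called higher in sox10+ cells in M and 21.9% in WH, and for 26.6% in M and 21.7% in WH every sox10+ library lay above every mylz2+ library. On library totals the differences were larger, and all 8 stayed called.

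**Figure D1:**
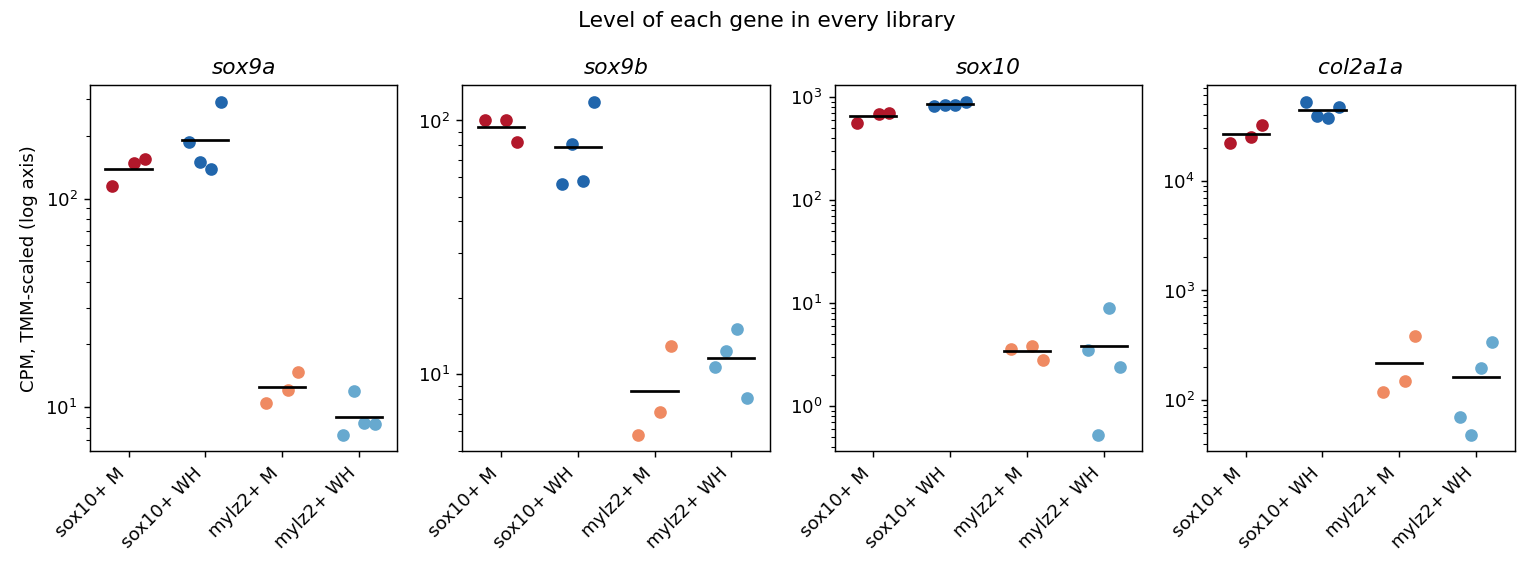
Level of each gene in every library, in TMM-scaled CPM on a log axis. Points are libraries, lines are group means, and the groups run from sox10+ M and WH on the left to mylz2+ M and WH on the right. Every sox10+ library lies above every mylz2+ library for all 4 genes, and in sox10+ cells the M and WH points separate for sox10 and col2a1a.

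col2a1a took more counts than any other gene in all 7 sox10+ libraries, with counts not divided by transcript length. It made up 3.53%, 3.94% and 4.67% of the counts in M libraries, against 7.27%, 5.77%, 5.37% and 6.07% in WH libraries. On the TMM scale this was 22300.2, 24989 and 32262 CPM in M, against 52758, 38851, 37171 and 47129 CPM in WH. Every M library lay below every WH library, and the mean was 26517 ± 5154 CPM in M and 43977 ± 7295 CPM in WH (SD, n = 3 and 4). In bulk libraries such as these, fewer cells of a type and less RNA per cell cannot be told apart.

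The fitted log2 fold change of col2a1a in sox10+ cells was -0.73 (SE 0.19, 95% confidence interval -1.16 to -0.30), a level in M of 0.602 times that in WH. Its edgeR p was 0.00350 before and 0.0697 after adjustment over 21476 genes, so it did not pass the threshold of 0.05. DESeq2, the tool the study used, called it (log2 fold change -0.74, adjusted p = 0.00249). Over all the alternatives tried the log2 fold change lay between -0.89 and -0.60 and the adjusted p between 0.00249 and 0.588, the highest where the spread was shared with the mylz2+ libraries. No library left out by itself turned the direction or brought the edgeR call.

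sox10 itself was also lower in M sox10+ cells in every library, by a smaller step. It had 562, 683 and 696 CPM in M, against 821, 838, 829 and 899 CPM in WH. The WH libraries lay close together, at 847 ± 35.8 CPM (SD, n = 4), and the M libraries were more spread, at 647 ± 73.8 CPM (SD, n = 3). The log2 fold change was -0.39 (SE 0.14, 95% confidence interval -0.70 to -0.07), with an edgeR p of 0.0212 before and 0.189 after adjustment. DESeq2 called it (adjusted p = 0.0150), and its adjusted p over all alternatives lay between 0.0150 and 0.805. On library totals, where the median of all genes lay at 0.12, the log2 fold change of sox10 was -0.25. The sort gated on a reporter driven by the sox10 promoter, so the level of sox10 in these cells is not independent of the gate.

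sox9a, a chondrocyte regulator, did not separate the genotypes. It had 115, 147 and 154 CPM in M sox10+ cells, against 186, 149, 138 and 291 CPM in WH sox10+ cells. M replicate 1 lay below all WH libraries, the other M libraries lay among the lower WH libraries, and WH replicate 4 stood above all others. The log2 fold change was -0.45 (SE 0.25, 95% confidence interval -1.02 to 0.11, adjusted p = 0.441), and without WH replicate 4 it was -0.20. The interval covers both no change and a level in M of 0.493 times that in WH.

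sox9b pointed the other way, within the spread of its libraries. It had 100.4, 100.4 and 81.9 CPM in M sox10+ cells, against 56.1, 80.6, 57.9 and 119 CPM in WH sox10+ cells. All 3 M libraries lay above 3 of the 4 WH libraries and below WH replicate 4, the library that was also highest for sox9a. The log2 fold change was 0.28 (SE 0.25, 95% confidence interval -0.29 to 0.84, adjusted p = 0.707), and without WH replicate 4 it was 0.52.

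In all, edgeR called 0 of the 4 genes between M and WH in sox10+ cells, while 3.71% of all 21476 genes tested were called (797 genes, and between 293 and 1018 with a library left out). At an unadjusted p under 0.05 there were 2 of 4, sox10 and col2a1a, against 16.5% of all genes. DESeq2 called the same pair lower, where 6.01% of the genes it tested were called lower. M libraries that all lay below the WH libraries were found for 2 of 4 genes and for 8.62% of all genes. The median log2 fold change of the 4 was -0.42, against -0.02 over all genes. Per the methods larvae were clutch-matched siblings and experiments were repeated across clutches, but the labels do not say which library came from which clutch, so the p-values measure the spread between these samples.

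**Figure D2:**
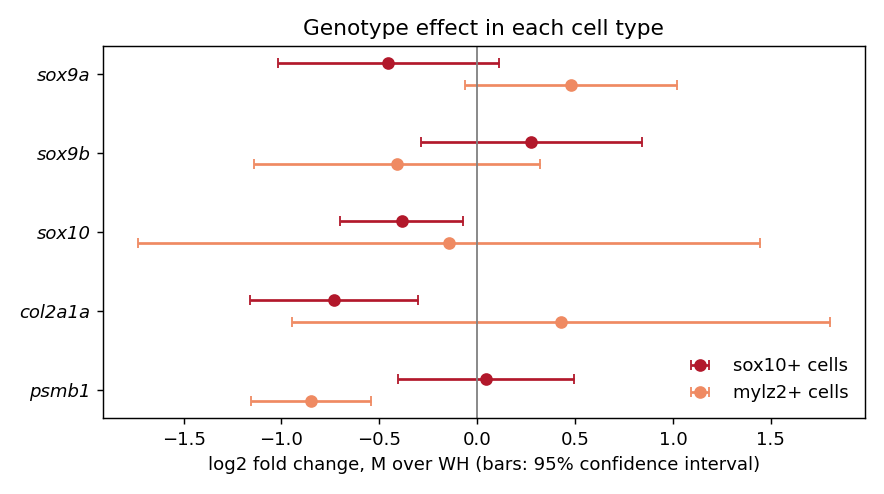
Genotype effect on each gene, as the log2 fold change of M over WH from edgeR with its 95% confidence interval, in sox10+ and mylz2+ cells. The interval lies below 0 for sox10 and col2a1a in sox10+ cells and for psmb1 in mylz2+ cells, and the other intervals cross 0.

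In mylz2+ cells the 4 genes were lower than in sox10+ cells, though col2a1a still had 8304 to 23382 counts in M and 1838 to 15859 in WH. There edgeR called 0 of 4 between M and WH, where 22.3% of all 20413 genes tested were called. None had an unadjusted p under 0.05, against 33.1% of all genes, and DESeq2 called 0 of 4, against 27.4% of the genes it tested. sox9a had 10.5, 12.1 and 14.7 CPM in M, against 7.38, 11.9, 8.44 and 8.30 CPM in WH, with WH replicate 2 among the M libraries. Its log2 fold change was 0.48 (SE 0.24, 95% confidence interval -0.06 to 1.02, adjusted p = 0.206). On library totals it was called, at 0.88 with an adjusted p of 0.0152 and no overlap of the groups, while the median of all genes then lay at 0.41. Its adjusted p over all alternatives lay between 0.0152 and 0.499.

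sox9b had 5.78, 7.13 and 13 CPM in M mylz2+ cells, against 10.7, 12.4, 15.1 and 8.09 CPM in WH mylz2+ cells. The groups overlapped through M replicate 4 and WH replicate 4, and the log2 fold change was -0.41 (SE 0.33, 95% confidence interval -1.14 to 0.32, adjusted p = 0.449). sox10 had few counts, with 252, 350 and 172 counts in M libraries, against 172, 20, 419 and 111 counts in WH libraries. That spread of 0.525 to 8.89 CPM within WH held all 3 M libraries, at 3.60, 3.85 and 2.83 CPM. Its log2 fold change of -0.15 (SE 0.71, adjusted p = 0.923) turned to 0.23 on library totals and to 0.70 without WH replicate 3.

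col2a1a varied more among mylz2+ libraries than between genotypes. It had 119, 151 and 384 CPM in M, against 69.8, 48.2, 196 and 339 CPM in WH. The log2 fold change was 0.43 (SE 0.62, 95% confidence interval -0.94 to 1.80, adjusted p = 0.704), and without M replicate 4 it turned to -0.28. The 6 other chondrocyte markers of a list (listed as COL9A1, COL9A2, col9a3, COL11A2, MATN1 and acana) varied with it: they summed to 64.0, 119 and 378 CPM in M, against 66.8, 51.8, 156 and 396 CPM in WH. The same libraries were high for col2a1a and for these markers, M replicate 4 and WH replicate 4. None of the 6 was at 0 in every library of a group, and their part in the mylz2+ level of col2a1a was not tested.

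The genotype effects in both cell types were then set against each other by an interaction term over all 14 libraries, where 1.3% of 23232 genes were called. edgeR called 0 of the 4 genes and DESeq2 0 of 4, where DESeq2 called 5.83% of all genes it tested, with 1 of 4 at an unadjusted p under 0.05, against 14% of all genes. That gene was sox9a, whose log2 fold change was 0.93 lower in sox10+ than in mylz2+ cells (difference -0.93, SE 0.36, 95% confidence interval -1.69 to -0.16, edgeR adjusted p = 0.245). The difference was 0.69 (SE 0.44, adjusted p = 0.540) for sox9b, -0.23 (SE 0.76, adjusted p = 0.963) for sox10 and -1.15 (SE 0.80, adjusted p = 0.584) for col2a1a. The contrasting signs of the genotype effect in sox9a, sox9b and col2a1a between the cell types are therefore not shown to differ.

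Ratios of counts within a library do not depend on scaling between libraries. The log2 ratio of sox9a over sox9b in sox10+ cells was 0.20, 0.55 and 0.91 in M, against 1.73, 0.89, 1.26 and 1.30 in WH. M lay lower on average by 0.74 on the log2 scale, with an overlap only between M replicate 4 and WH replicate 2 (exact two-sided permutation test, p = 0.114). In mylz2+ cells the same ratio was 0.86, 0.77 and 0.18 in M, against -0.53, -0.05, -0.83 and 0.04 in WH. Here every M library lay above every WH library, by 0.95 on average, with p = 0.0571 in the exact permutation test, the smallest that 3 against 4 libraries can give, and 0.343 after adjustment over the 6 ratios compared. The ratio thus lay lower in M in sox10+ cells and higher in M in mylz2+ cells, and the difference between the cell types was not tested. A ratio carries no length correction, so a value above 0 does not mean more sox9a than sox9b molecules.

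The log2 ratio of col2a1a over sox9a sets the collagen gene against a regulator whose mammalian counterpart activates it. In sox10+ cells it was 7.59, 7.41 and 7.71 in M, against 8.15, 8.02, 8.07 and 7.34 in WH. The other 3 WH libraries lay above all M libraries, and WH replicate 4, the library high in both sox9 genes, lay below them (difference -0.33, exact permutation p = 0.229). The ratio of sox10 over sox9a differed by 0.01 in sox10+ cells (exact permutation p = 1), and in mylz2+ cells these 2 ratios differed by 0.16 and -0.04 (exact permutation p = 0.914 and 0.971). Relative to the summed counts of the 6 other chondrocyte markers, col2a1a stood at 0.881 to 0.969 in M sox10+ libraries, against 0.791 to 0.899 in WH sox10+ libraries. These ranges overlapped, while the levels of col2a1a itself did not. Relative to the same markers sox10 stood at 0.0190 to 0.0246 in M and 0.0123 to 0.0194 in WH, and sox9a at 0.00422 to 0.00529 in M and 0.00279 to 0.00501 in WH, so that both ratios were higher in M on average, with overlap, while their levels in CPM were lower.

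**Figure D3:**
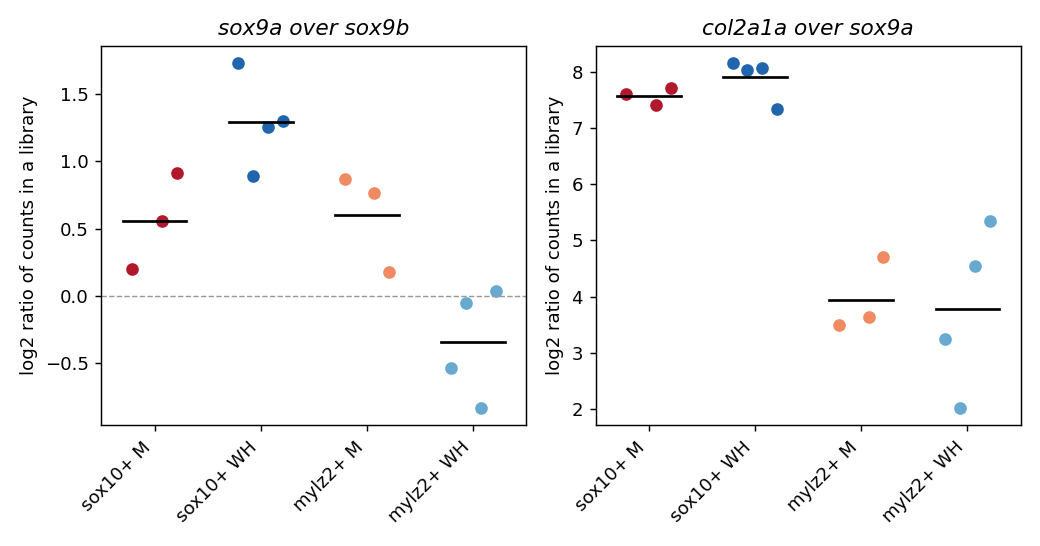
Within-library log2 ratio of counts for sox9a over sox9b and for col2a1a over sox9a. Points are libraries and lines are group means, with the dashed line at a ratio of equal counts. The sox9a over sox9b ratio is lower in M than WH in sox10+ cells, with 1 pair of libraries overlapping, and higher in M than WH in mylz2+ cells with no overlap.

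Most other genes of cartilage matrix had negative fold changes in M sox10+ cells, as col2a1a did, and few passed the test in edgeR. The list held 28 identifiers of collagens, proteoglycans, matrilins and link proteins, and 27 of the 28 had a negative log2 fold change. Their median was -0.85, against -0.02 over all genes tested. edgeR called 0 of them higher and 3 lower, where 3.71% of all genes were called in either direction. At an unadjusted p under 0.05 there were 19 of 28, against 16.5% of all genes. DESeq2 called 0 higher and 19 lower, where it called 6.01% of all genes it tested lower. Named with the mammalian symbols that the gene table gives to some zebrafish identifiers, the 3 that fell in edgeR were UCMA (ENSDARG00000005485), a cartilage protein that binds calcium, snorc (ENSDARG00000092383), a small chondrocyte proteoglycan, and col11a1b (ENSDARG00000009014), a chain of the minor fibril collagen XI.

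UCMA averaged 135 ± 49.4 CPM in M and 359 ± 116 CPM in WH (SD, n = 3 and 4), with a log2 fold change of -1.41 (SE 0.29, adjusted p = 0.0284). snorc averaged 255 ± 58.2 CPM in M and 610 ± 213 CPM in WH, a log2 fold change of -1.25 (SE 0.27, adjusted p = 0.0334). col11a1b averaged 124 ± 12.3 CPM in M and 238 ± 28.0 CPM in WH, a log2 fold change of -0.94 (SE 0.16, adjusted p = 0.0109). For all 3 genes the highest M library lay below the lowest WH library, as it did for 8.62% of all genes. The UCMA call was lost without M replicate 1 (adjusted p = 0.140), M replicate 3 (0.128) or WH replicate 1 (0.0533), and the snorc call without any of the M replicates 1, 3 and 4 (0.159, 0.125 and 0.0740) or WH replicate 1 (0.0624). The col11a1b call was lost without any of the M replicates 1, 3 and 4 (0.0539, 0.0777 and 0.0574).

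The largest matrix genes sat close to col2a1a in the size of their difference without passing the threshold. The second identifier listed as COL2A1 (ENSDARG00000011407) averaged 4740 ± 1328 CPM in M and 8336 ± 1789 CPM in WH, a log2 fold change of -0.82 (adjusted p = 0.0927). COL9A2, a chain of collagen IX that coats type II fibrils, had a log2 fold change of -0.74 (adjusted p = 0.0691), and MATN1, a matrilin that links matrix filaments, had -0.96 (adjusted p = 0.0674). MATN4 differed by -0.01 (adjusted p = 0.982), with 3315 CPM in M and 3350 CPM in WH on average, and was in this respect unlike the genes just named. Not every collagen of the list separated as col2a1a did: col9a1b had 21284 to 27033 counts in M and 16082 to 26010 in WH, an overlap. These counts are not scaled, and sox10+ library totals reached 72034939 in M and 62057318 in WH. They therefore do not show a higher level of col9a1b in M. In mylz2+ cells the matrix list had a median of 0.01, the same as all genes, with 0 higher and 1 lower of 24 tested, where 22.3% of all genes were called. The 1 called was FMOD (ENSDARG00000044895), the collagen-binding proteoglycan fibromodulin, at 4.24 CPM in M and 13.1 CPM in WH on average (log2 fold change -1.62, adjusted p = 0.0421). Its call was lost without M replicate 1 (adjusted p = 0.132), M replicate 4 (0.133), or WH replicates 1, 3 and 4 (0.0680, 0.0536 and 0.113), and on library totals (0.146). Between the cell types, 25 of the 28 were called higher in sox10+ than in mylz2+ cells in M and 25 in WH, against 16.4% and 21.9% of all genes.

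**Figure D4:**
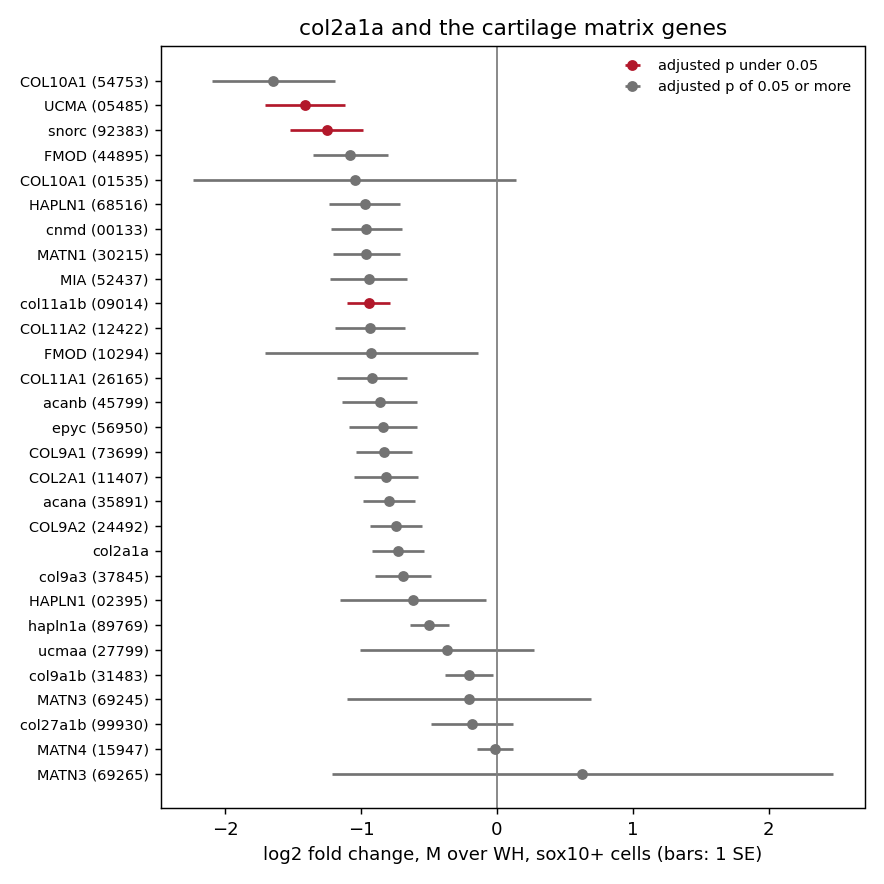
Log2 fold change of M over WH in sox10+ cells for col2a1a and the 28 cartilage matrix identifiers, each with 1 SE, ordered by value. Numbers in brackets are the last digits of the Ensembl identifier, and red marks an edgeR adjusted p under 0.05. Of the 28 identifiers 27 lie below 0, and col2a1a lies close to COL9A2.

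Other regulators of cartilage did not pass the test in sox10+ cells, where 3.71% of all genes did. Of 14 chondrogenic regulators edgeR called 0 higher and 0 lower there. At an unadjusted p under 0.05 there were 3, against 16.5% of all genes, and DESeq2 called 1 lower, against 6.01%. These counts lie near the shares of all genes and are no result about the list. The median log2 fold change of the 14 was -0.42, against -0.02 over all genes. SOX5 and SOX6, the partners of Sox9 in mammals, had log2 fold changes of -0.36 (adjusted p = 0.431) and -0.53 (adjusted p = 0.236). The third kind of SoxE gene is listed under SOX8 with a pair of identifiers: ENSDARG00000037782 averaged 17.0 CPM in M and 13.3 CPM in WH (log2 fold change 0.35, adjusted p = 0.740), and ENSDARG00000105301 averaged 1.26 CPM in M and 7.0 CPM in WH (log2 fold change -2.48, adjusted p = 0.0891). BARX1, a homeobox factor of the arches, averaged 25.4 CPM in M and 28.5 CPM in WH (log2 fold change -0.16, adjusted p = 0.872). Of 17 neural crest and pharyngeal arch genes edgeR again called 0 higher and 0 lower, with 2 at an unadjusted p under 0.05 and 1 called lower by DESeq2, and a median of -0.18. These counts too lie near the shares of all genes.

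In mylz2+ cells, where 22.3% of all genes were called, 4 of 12 chondrogenic regulators tested were called. Of these 1 rose and 3 fell, with a median log2 fold change of -0.0027, against 0.010 over all genes. The forkhead factors foxf2a and FOXF1 fell to 1.42 and 0.678 CPM on average in M, against 33.5 and 12 CPM in WH (log2 fold changes -4.54 and -4.12, adjusted p = 8.98e-05 and 0.00175). SOX6, which in zebrafish muscle also represses slow fiber genes, averaged 96.3 CPM in M and 174 CPM in WH (log2 fold change -0.84, adjusted p = 0.00307), and on library totals it was no longer called (-0.42, adjusted p = 0.109). wwp2, which encodes a ubiquitin ligase and in mammals is a target of SOX9 in cartilage, rose to 189 CPM in M, against 72.6 CPM in WH (log2 fold change 1.39, adjusted p = 0.000489). In sox10+ cells wwp2 had a log2 fold change of -0.45 (adjusted p = 0.329).

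Of 16 neural crest and arch genes tested in mylz2+ cells 1 rose and 2 fell, with a median of -0.35, a count near the 22.3% called among all genes and so no result about the list. snai2, a zinc finger repressor of neural crest, had 15.6 CPM in M and 7.84 CPM in WH on average (log2 fold change 1.01, adjusted p = 0.0466). TFAP2B, a neural crest and kidney transcription factor, had 3.88 CPM in M and 10.9 CPM in WH (log2 fold change -1.48, adjusted p = 0.0192). PRRX1 (ENSDARG00000033971), a mesenchyme homeobox factor, had 12.4 CPM in M and 19.2 CPM in WH (log2 fold change -0.62, adjusted p = 0.0428). The snai2 call was lost in 6 of the 7 fits without a library and stayed only without WH replicate 3, with adjusted p between 0.00987 and 0.225. The PRRX1 call was lost in all 7, with adjusted p between 0.0572 and 0.115. On library totals TFAP2B and PRRX1 were no longer called (adjusted p = 0.106 and 0.580).

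Marker lists of other cell types were summed in M and WH sox10+ libraries. Those of glia, of neurons, and of bone and perichondrium (given at the end) did not overlap between genotypes. Among all single genes 3.71% were called in sox10+ cells, and 8.62% lay lower in M without overlap. The 5 glia and oligodendrocyte markers, of which several are genes of myelin, summed to 416, 480.2 and 545 CPM in M, against 1228, 2656, 2447 and 2374 CPM in WH. All 5 had negative log2 fold changes (median -1.74, against -0.02 over all genes) and 3 of 5 fell, namely plp1b, mbpa and mbpb. sox10 is kept in these cells, and their part in its lower level was not tested. Of 11 pigment cell markers 8 had negative and 3 positive log2 fold changes (median -1.21). edgeR called 2 lower, 6 had an unadjusted p under 0.05, against 16.5% of all genes, and DESeq2 called 5 lower, against 6.01%. The 2 were pnp4a and the receptor gene ltk, both of iridophores, while gch2 and aox5 of xanthophores had log2 fold changes of 0.19 (adjusted p = 0.719) and 0.17 (adjusted p = 0.785). The melanophore genes were not called by edgeR, and the ranges of those given here overlapped. DCT had 2529 to 4134 counts in M and 2888 to 11348 in WH, and pmela 4862 to 11088 in M and 4937 to 23949 in WH. TYRP1 (ENSDARG00000056151) had 5775 to 11752 in M and 8967 to 33519 in WH. The list summed to 3795 to 4712 CPM in M, against 3298 to 5475 CPM in WH, an overlap. Most of its counts were of gch2, with 327584 to 406436 in M and 185818 to 326778 in WH, so the sum mostly follows that gene. The counts of gch2 and of the melanophore genes are not scaled for library size, and gch2 was not called (log2 fold change 0.19). The 5 neuron markers summed to 179 to 217 CPM in M, against 362 to 454 CPM in WH, and 2 of 5 fell, the RNA-binding protein genes ELAVL3 and ELAVL4.

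The remaining lists did not share a direction. In sox10+ cells edgeR called 1 of 4 epidermis markers higher, and 0 of the endothelium, blood, and retina and lens markers, where 3.71% of all genes were called. The 5 ear markers summed to 1368 to 1895 CPM in M, against 790 to 1392 CPM in WH. Of these 4 of 5 had positive log2 fold changes (median 0.56) and 3 had an unadjusted p under 0.05 in edgeR, against 16.5% of all genes. By adjusted p 1 of 5 rose, OTOG, a gene of inner ear membranes, where 3.71% of all genes were called. The 6 chondrocyte markers other than col2a1a summed to 23016 to 36611 CPM in M, against 43195 to 66696 CPM in WH, without overlap. Fast muscle markers summed to 32.1 to 373 CPM in M sox10+ libraries, against 176 to 1131 CPM in WH sox10+ libraries, where WH replicate 1 was highest, and 0 of 14 were called by edgeR (3 at an unadjusted p under 0.05, 2 lower by DESeq2). Without WH replicate 1 the log2 fold change of col2a1a was -0.61 and that of sox10 was -0.38. In mylz2+ libraries the fast muscle list summed to 92386 to 156222 CPM in M, against 216488 to 253149 CPM in WH, and 10 of 14 fell, where 22.3% of all genes were called.

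**Figure D5:**
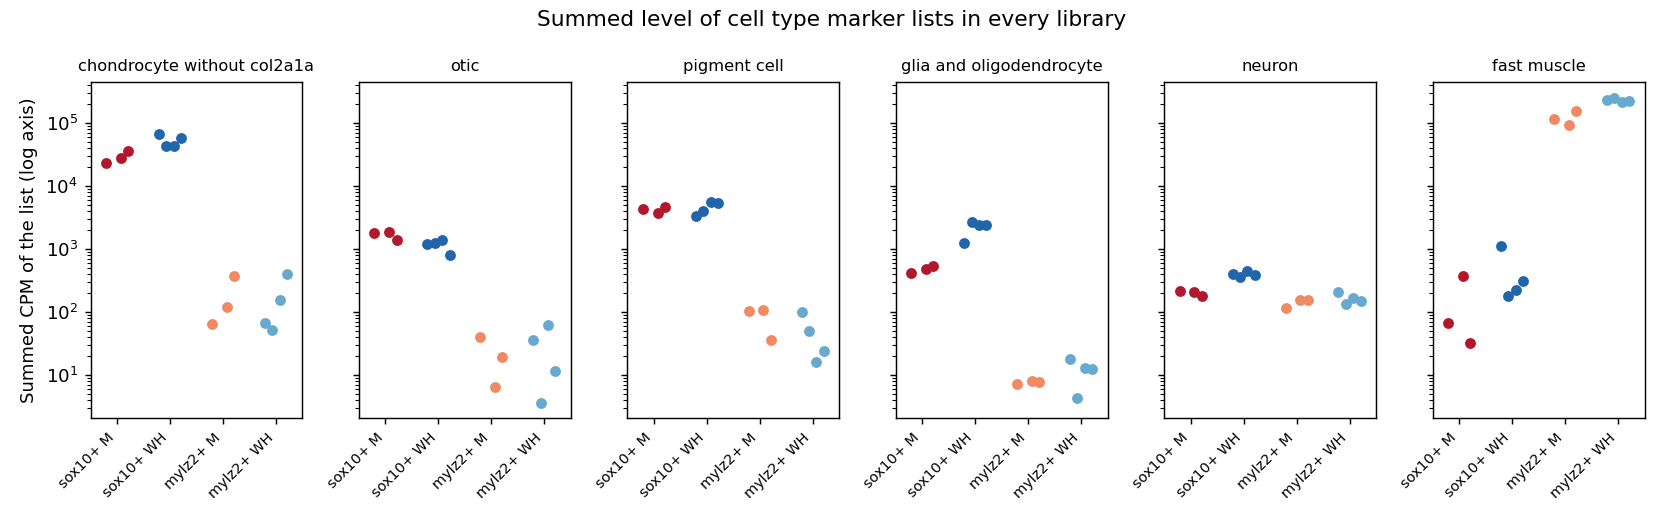
Summed CPM of cell type marker lists in every library, on a log axis, in the order sox10+ M, sox10+ WH, mylz2+ M, mylz2+ WH. In sox10+ cells the sums for glia, neurons and chondrocytes lie lower in every M library than in any WH library, and those for the ear and for pigment cells overlap.

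The genes whose levels followed each member most closely were ranked over the 14 libraries by Pearson correlation of log2(CPM + 1), among 17254 genes with a mean of at least 1 CPM. The libraries fall into 2 cell types, so these correlations mostly carry the contrast between sox10+ and mylz2+ cells. For col2a1a the nearest were COL9A2 (r = 0.999), col9a3 (r = 0.998) and COL9A1 (r = 0.998), the 3 chains of collagen IX. For sox9a they were PLOD3 (r = 0.994), an enzyme that modifies collagen lysines, HAPLN1 (ENSDARG00000068516, r = 0.994), a cartilage link protein, and antxr1c (r = 0.993). For sox10 they were MATN4 (r = 0.995), SFRP5 (r = 0.995), a secreted Wnt inhibitor, and MKX (r = 0.994), a homeobox factor. For sox9b they were PLPP2 (r = 0.986), a lipid phosphatase, CBFA2T2 (r = 0.986), a transcriptional corepressor, and ATL3 (r = 0.983), a membrane protein of the endoplasmic reticulum. Among the members themselves the correlation with col2a1a was 0.984 for sox10, 0.976 for sox9a and 0.942 for sox9b.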

How the data were processed

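RNA of sorted cells was amplified with the SMART-Seq HT kit and made into Nextera XT libraries. The authors aligned reads with STAR to GRCz11 and deposited raw counts for 32520 Ensembl genes in 14 libraries, and tested them with DESeq2. Tool versions, the counting tool and strand handling are not given in the sources used here.

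The deposited counts were tested with edgeR 4.0.16 (filterByExpr, TMM factors, quasi-likelihood F test, Benjamini-Hochberg adjustment over all genes tested, threshold 0.05). Genotypes were fitted within each cell type, and cell types and the interaction over all 14 libraries. Alternatives were DESeq2 1.42.0, a different scaling or filter, fits without each library in turn, and the replicate number as a block. SE was taken as the log2 fold change over the square root of F. Ratios of counts used a pseudocount of 0.5 and exact permutation tests (scipy 1.17.1). Named were the members, psmb1, up to 4 called genes per list and genotype comparison with the largest change, and the 3 genes most correlated with each member. Other list and marker genes were named after their values were seen. The members and lists were chosen with earlier results of these data known. Symbols came from a table of Ensembl identifiers, which gives SOX9 for both sox9 genes, and 29201 of the 32520 matched. The scripts were tested on simulated data. Counting error alone allows up to 0.0547 CPM at 0 counts. A marker gene left out of its list is not reported here.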

Additional observations from a re-analysis of the deposited data

Results flagged for a closer look

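Of 14 sets of values in the WH groups of 4 libraries examined for a single library far from the others, 1 was singled out, and chance alone does so in about 1 of 20 groups. It was the log2 ratio of col2a1a over sox9a in sox10+ WH replicate 4, at 7.34, while the other 3 WH libraries lay between 8.02 and 8.15. On the linear scale this library had 162 counts of col2a1a per count of sox9a, against 260 to 284 in the others. Its sox9a level of 291 CPM was the highest of all libraries, and its col2a1a level of 47129 CPM lay within the WH range.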

How the results depend on the processing

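The genotype comparison in sox10+ cells gave 797 called genes, against 1290 with at least 10 counts in every library, 2418 with DESeq2, 1211 in a fit over all 14 libraries, and 293 to 1018 with a library left out (293, 359 and 350 without M replicates 1, 3 and 4, and 467 without WH replicate 2). In mylz2+ cells the 14-library fit gave 2683 in place of 4553. The interaction gave 301, against 553 with the stricter filter, 1327 with DESeq2, and 102 to 443 with a library left out. On library totals the share of calls that were higher was 71.9% in place of 56.7% in sox10+ and 79.5% in place of 48.1% in mylz2+ cells for genotype, 81.8% in place of 49.2% in M and 84.5% in place of 51.6% in WH for cell type, and 31.4% in place of 64.8% for the interaction. DESeq2 called col2a1a (-0.74) and sox10 (-0.39) in sox10+ cells, and library totals called sox9a (0.88) and turned sox10 (0.23) in mylz2+ cells. The 14-library fit ended the calls of UCMA (adjusted p = 0.376), snorc (0.637), TFAP2B (0.0733) and PRRX1 (0.0522). The causes were not tested.

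Larvae were clutch-matched siblings per the methods, but no source ties a replicate number to a clutch. Over all genes tested, deviations of same-numbered libraries correlated between -0.04 and 0.08, so the numbers were not taken as a pairing. A correlation over all genes does not settle this for a single gene. With a replicate block the sox10+ count was 174 and the interaction count 137, and the calls of snorc, col11a1b, FMOD, snai2 and PRRX1 were lost. The mylz2+ M library titled replicate 3 is headed M2 in the counts. With the number of the column name as the block, sox10 in mylz2+ cells turned to 0.99 and col2a1a there stood at 0.87 (adjusted p = 0.0680, edgeR). With the replicate number of the title as the block, sox10 there stood at -0.29 (adjusted p = 0.740, edgeR). On that block col2a1a stood at 0.20 (SE 0.21, against 0.62 without a block, adjusted p = 0.592, edgeR).

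Without single libraries these values changed sign: sox10 in mylz2+ cells (-0.51 to 0.70), col2a1a in mylz2+ cells (-0.28 to 1.07), the interaction of sox10 (-1.01 to 0.18), psmb1 in sox10+ cells (-0.079 to 0.16, and -0.024 without M replicate 1), sox10 over sox9a in sox10+ cells (-0.18 to 0.14) and in mylz2+ cells (-0.92 to 0.60), and col2a1a over sox9a in mylz2+ cells (-0.43 to 0.68). None of these passed a threshold. The 8 cell type differences of the members stayed called in all 20 alternatives.

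On library totals the mean CPM of M and WH sox10+ cells was 213 and 263 for sox9a, 145 and 108 for sox9b, 993 and 1183 for sox10, and 40501 and 61189 for col2a1a. In mylz2+ cells sox9a had 10.0 in M and 5.43 in WH, sox9b 6.82 in M and 7.04 in WH, and sox10 2.81 in M and 2.40 in WH. There col2a1a had 170 in M and 101 in WH. The log2 fold change of sox9b in mylz2+ cells was -0.04 on library totals, against -0.41 with TMM. The lowest counts, 20 for sox10 in a mylz2+ library, limit that gene there.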

Other observations

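The proteasome genes rose in both cell types. Of 32 identifiers, 31 rose in M sox10+ cells (median log2 fold change 1.89) and 31 rose in M mylz2+ cells (median 1.42), where psmb1 was the 1 that fell. Among all genes tested 3.71% were called in sox10+ and 22.3% in mylz2+ cells, in either direction. The largest changes in sox10+ cells were in PSMB4 and PSMB2, of the core particle, with PSMD14, the deubiquitinating subunit of the cap, and PSMB7, and in mylz2+ cells in PSMB2, PSMD11, PSMB4 and PSMD13. The calls of these named genes held in every alternative tried.

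Tendon and bone marker lists summed lower on median in M in both cell types. In mylz2+ cells 3 of 4 tendon identifiers fell, where 22.3% of all genes were called. The list summed there to 337 to 383 CPM in M, against 682 to 914 CPM in WH. Most of its counts were of XIRP2 (ENSDARG00000071113), with 18550 to 28961 counts in M and 27213 to 41163 in WH. SCX had 83 to 132 counts in M and 112 to 201 in WH, and TNMD 26 to 202 in M and 132 to 592 in WH. These counts are not scaled for library size, so an overlap of counts is not an overlap of levels. All 4 identifiers had negative log2 fold changes and an unadjusted p under 0.05 in edgeR, against 33.1% of all genes. DESeq2 called 4 lower, where it called 27.4% of the genes it tested in either direction. The size of the sum in these sorted muscle cells mostly follows XIRP2, and it gives no level of tendon cells. In sox10+ cells the list summed to 21.2 to 34.5 CPM in M, against 31.3 to 53.5 CPM in WH. In sox10+ cells edgeR called 0 of 7 bone and perichondrium markers tested (3 at an unadjusted p under 0.05, 3 lower by DESeq2), where 3.71% of all genes were called. The list summed to 2218 to 2458 CPM in M, against 2862 to 3661 CPM in WH, without overlap. Nearly all of its counts there were of the type I collagen identifiers col1a1a, COL1A1 and COL1A2. SP7 had 5 to 412 counts in M and 0 to 185 in WH, and bglap had 0 in every sox10+ library. The lack of overlap thus follows type I collagen and is not shown for bone. In mylz2+ cells, where 1 of 6 tested fell (spp1), the median sum was 1262 CPM in M and 1502 CPM in WH, with overlap. The genotype effect differed between cell types for 0 of 4 tendon identifiers (edgeR interaction, 1 at an unadjusted p under 0.05, 0 by DESeq2). It differed for 1 of 7 bone markers, again spp1, which is named here after its values were seen. In mylz2+ cells spp1 had 0 counts in every M library, against 33, 87, 17 and 10 counts in WH libraries. In sox10+ cells it had 206 to 522 counts in M and 53 to 812 in WH, an overlap. Both spp1 calls thus rest on few counts in mylz2+ cells, and they give no size of change.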
